A study of Mus musculus with 26 samples.

Results

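The potassium channel genes described here were the lines of the expression table whose name begins with Kcn, other than Kcnv2 and Kcnj10, with a value in all 26 libraries and a mean of at least 5 RPM (read count scaled to the size of the library) in at least 1 of the 13 groups. Of 95 Kcn lines, 2 were left out by name and 58 stayed under 5 RPM in every group. The remaining 35 genes were members, out of 25146 completely filled lines. They were selected on their highest group mean, so the levels that chose them are given as a description. A member that reached 5 RPM in a single group had to be higher there, and the counts of members below describe the list and support nothing about it.

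The libraries were made by amplifying the 3' ends of transcripts from 1 ng of RNA, with 2 libraries per sorted group. Mouse cells of 4 lineages that express the transcriptional repressor BLIMP1 at some stage were compared, and the question of the comparisons was which genes differed between lineages and between successive stages of each. Day 2 primordial germ cell-like cells (d2 PGCLC) were induced from epiblast-like cells of a mixed C57BL/6 and 129 stem cell line that had been transfected and carried Blimp1-mVenus, stella-ECFP and Rosa26-rtTA. They received BMP4 and BMP8A at 500 ng/mL, SCF at 100 ng/mL, EGF at 50 ng/mL and LIF at 1000 U/mL, and mVenus-positive cells were sorted. All other cells came from C57BL/6 mice homozygous for an EGFP-BLIMP1 allele, with EGFP inserted at the protein's N-terminal end, the groups without GFP included, so no group of unmodified mice was among them. Intestinal epithelium, taken from the caudal part of the duodenum to the ileocecal junction, was sorted as BLIMP1+ EpCAM+ at E16.5 and, per the protocol, as BLIMP1-negative EpCAM+ at P3 and P14, so stage and gate changed together between E16.5 and P3. The design text calls the P3 and P14 groups embryonic, and the sample titles were followed. Prdm1, the gene of BLIMP1, was at 93.5 and 107 RPM at E16.5, 46.2 and 71.3 RPM at P3 and 21.4 and 16.9 RPM at P14, beside 28.5 and 24.5 RPM in the mVenus-positive d2 PGCLC. The transcript was thus present in the epithelium labelled as BLIMP1-negative, and at P3 it lay above a group sorted for the reporter. Retinal photoreceptor precursors were sorted as GFP+ at P0, as GFP+CD73- at P4, and as CD73+ at P4, P6 and P10. Age and gate thus changed together between P0 and each later retinal group. Whether the CD73+ cells were also gated on GFP is not stated. The B220+ B cells were splenic, from animals 8 to 10 weeks old. After 3 days of culture with LPS at 10 ng/mL and IL-4 at 2 ng/mL, Blast cells (GFP- CD138-), pre-plasmablasts (prePB, GFP+ CD138-) and plasmablasts (PB, GFP+ CD138+) were sorted. Whether the 2 libraries of a group are from different animals or cultures is not stated in the labels. P-values here therefore reflect the spread between 2 libraries, and that spread may be technical.

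Potassium channels let potassium ions pass through the cell membrane, which in most cells draws the membrane potential toward negative values. The family holds voltage-gated channels, channels opened by intracellular calcium, inward rectifiers and two-pore channels that pass a background current, and auxiliary subunits that change the gating or placement of the pore-forming ones. In photoreceptors they shape the voltage response to light, in intestinal epithelium they balance chloride secretion and absorption, and in lymphocytes they hold the driving force for calcium entry. Of the 35 members, 17 encode voltage-gated subunits (of 39 such lines considered), 9 auxiliary subunits (of 16), 4 two-pore channels (of 14), 3 calcium- or sodium-activated channels (of 8) and 1 an inward rectifier (of 14). The last one, Kcnq1ot1, is not a channel gene: it is a long noncoding RNA read from within Kcnq1 on the opposite strand. The 3 members just above the threshold were Kcnip3 with a highest group mean of 5.19 RPM, Kcna6 with 5.26 RPM and Kcnip4 with 5.45 RPM. The 3 lines just below it were Kcnk13 at 4.79 RPM, Kcna2 at 4.64 RPM and Kcnk16 at 4.60 RPM.

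Promoter sequences were looked at for letters of a photoreceptor and a BLIMP1 type of motif, because the members that stood highest at P10 in the retina and the reporter used in the study bear on both. RefSeq (GRCm38.p6) gave 41 promoters for 26 of the 35 members, each from 250 bases before to 50 bases after an annotated start. Kcnj14, Kcnk3 and Kcnd1, all highest at P10, were among the members without a promoter and were not searched. The letters GGATTA, the core of sites known for the photoreceptor factor CRX, were searched on both strands (TAATCC on the other) and occurred in 7.06% of 32851 promoters of the same length and in 1 of the 41 member promoters, that of Kcng4. The letters GAAAGT, the core of sites known for BLIMP1 (ACTTTC on the other strand), occurred in 14.3% of all promoters and in 3 of the 41, which belonged to Kcne2, with 2 starts, and Kcnip4. The Kcng4 promoter and that of the first Kcne2 start are shown, as 2 members highest at P10 that hold a match, written 5′ to 3′ on the strand of the gene, with the matching letters in capitals.
Kcng4, chr8:119635631-119635930, minus strand: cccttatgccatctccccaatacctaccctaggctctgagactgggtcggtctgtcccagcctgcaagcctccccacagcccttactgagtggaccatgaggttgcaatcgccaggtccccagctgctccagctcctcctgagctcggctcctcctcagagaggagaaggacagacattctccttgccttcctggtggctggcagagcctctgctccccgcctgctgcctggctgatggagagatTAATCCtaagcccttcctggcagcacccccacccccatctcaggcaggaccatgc
Kcne2, chr16:92292139-92292438, plus strand: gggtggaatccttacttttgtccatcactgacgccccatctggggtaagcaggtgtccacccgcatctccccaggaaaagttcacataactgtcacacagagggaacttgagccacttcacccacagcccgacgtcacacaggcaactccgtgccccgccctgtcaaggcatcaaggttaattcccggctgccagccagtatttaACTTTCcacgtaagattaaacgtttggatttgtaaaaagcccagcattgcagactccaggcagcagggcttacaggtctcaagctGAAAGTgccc
In Kcng4 the match began 5 bases before the start, and in Kcne2 the matches began 45 bases before and 40 bases after it. A match of 6 letters is a description of the sequence and not a binding site.

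**Figure D1:**
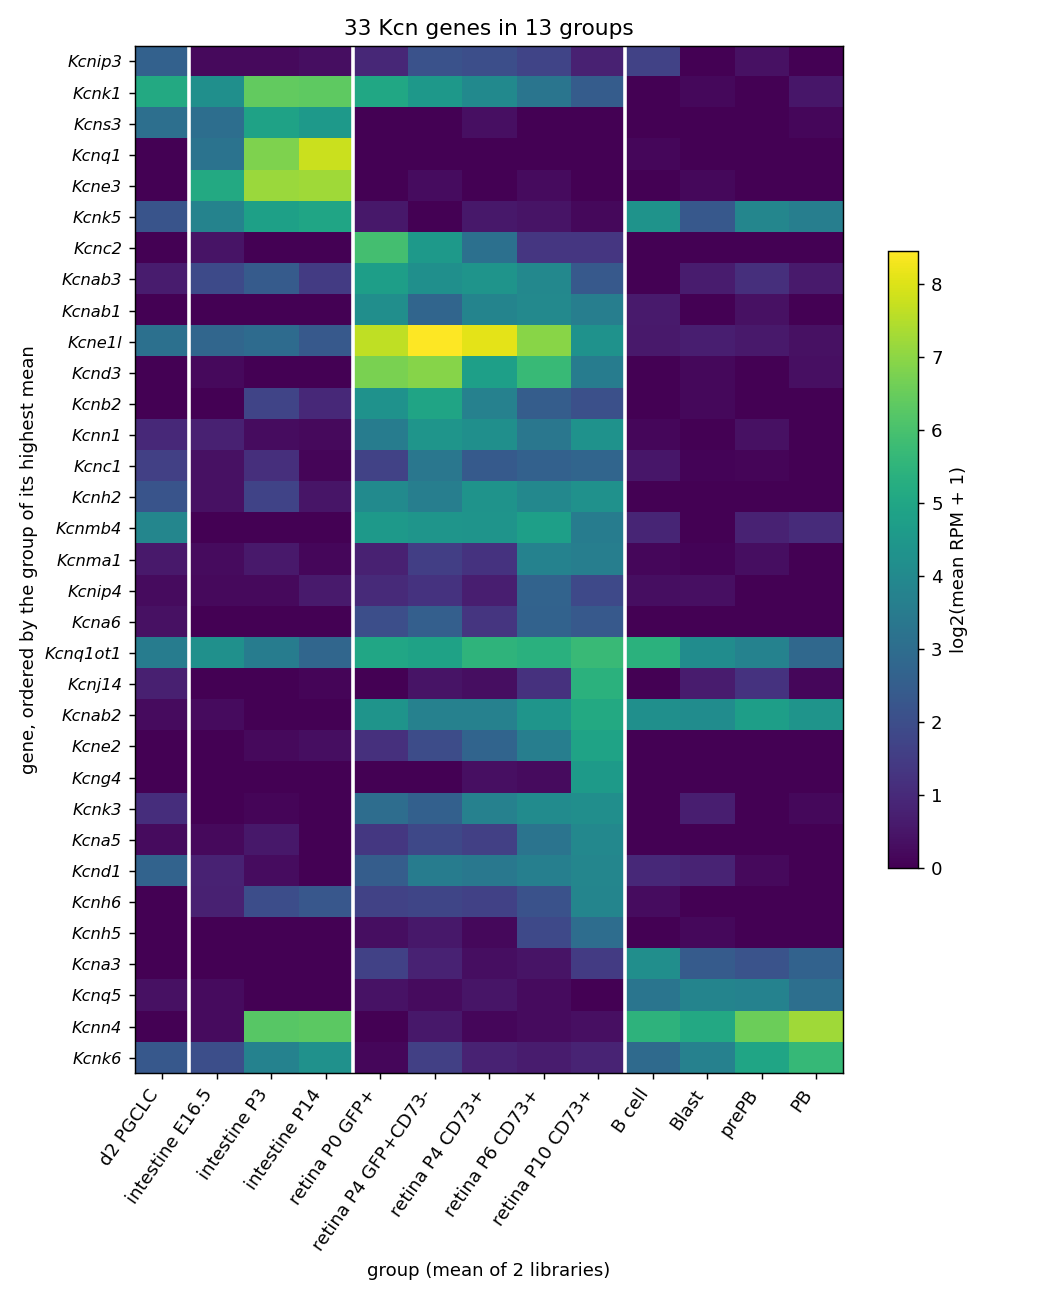
Mean level of 33 members (rows, ordered by the group of their highest mean) in the 13 groups (columns, mean of 2 libraries), as log2(mean RPM + 1), with white lines between lineages. The intestine holds the highest mean of 5 members shown and the B lineage of 4, and P10 stands out in the rows of Kcnj14 and Kcng4.

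The value of 1 read, estimated from the steps between low values, ran from 0.166 RPM in the deepest library to 0.583 RPM in the shallowest, so values near 1 RPM rest on a few reads. The lines used summed to 650799 and 688942 RPM in the PB libraries, and to at least 827448 RPM in every other library. Photoreceptor markers (9 of 9 detected) summed to between 2519 and 38847 RPM in retinal libraries, enterocyte markers (8 of 8) to between 5062 and 24416 RPM in intestinal libraries, and B cell markers (6 of 6) to between 1700 and 9860 RPM in the B lineage. In the d2 PGCLC the germ cell and pluripotency markers (7 of 7) summed to 757 and 796 RPM and the mesoderm markers (6 of 6) to 1531 and 1685 RPM.

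Where the members reached 5 RPM is a description of the list, and no share over all genes was taken for it. The retina supplied 5 of the 13 groups. In 24 of the 35 a single lineage held all groups at or above that level: the retina for 19, the B lineage for Kcna3 and Kcnq5, the intestine for Kcne3 and Kcnq1, and the d2 PGCLC for Kcnip3. A further 8 reached it in 2 lineages, Kcne1l and Kcnk1 in 3, and Kcnq1ot1 in all 4 and in each of the 13 groups. The highest group mean fell in the retina for 25 members, in the intestine for 5, in the B lineage for 4 and in the d2 PGCLC for 1, and P10 alone held it for 11. A gene was taken as enriched in a lineage when its log2(RPM + 1), averaged over the groups of that lineage, was higher than in each of the other 3 lineages by at least 1 with a limma adjusted p under 0.05. By that rule 18 of 35 members were enriched in the retina, where 22.3% of the 14131 genes tested were. In the intestine 3 members were enriched, with 10.1% of all genes; in the B lineage 3, with 5.8%; and in the d2 PGCLC 1, with 7.01%. For the 24 members of a single lineage the levels in that lineage also chose them, so their enrichment is a description. In bulk samples a lower level can come from fewer cells of a type or from less RNA per cell, and the values cannot tell these apart.

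Kcnn4 was high in the postnatal intestine and the B lineage, and Kcnj14 and Kcng4 in the P10 retina. Kcnn4 (chromosome 7, 24369826 to 24385212, GRCm38.p6) encodes the calcium-activated channel of intermediate conductance, which opens through bound calmodulin and is known in lymphocytes and secretory epithelia. It was at 67.7 and 83.1 RPM in the P3 intestine, at 92.8 and 67.1 RPM at P14, and at 155 and 146 RPM in PB. It was listed at 0 in both d2 PGCLC libraries and did not exceed 0.75 RPM in any retinal library. At E16.5 the intestine held 0.385 and 0 RPM, which is 1 read or none, so the epithelial libraries of the 2 postnatal stages stood far above the embryonic ones. Kcnj14 (chromosome 7, 45816467 to 45824747), an inward rectifier, held 43.4 and 39.7 RPM at P10 and at most 2.2 RPM in each of the other 24 libraries. Kcng4 (chromosome 8, 119623854 to 119635680, minus strand) encodes a voltage-gated subunit that forms no channel by itself and changes the properties of other voltage-gated subunits when it joins them. It held 12.5 and 34.0 RPM at P10, was listed at 0 in 22 of the 26 libraries, and was at most 0.529 RPM in the other 2. Both P10 libraries lay above all others for Kcnj14 and Kcng4, and for Kcng4 the 2 P10 libraries differed from each other by more than for Kcnj14.

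Among the members of highest mean level over the 5 groups of the retina were Kcne1l (193 RPM), Kcnd3 (62.9 RPM), Kcnq1ot1 (39.1 RPM) and Kcnmb4 (20.0 RPM). RPM of 3' reads is given per gene and does not rank genes against each other. Among the 6 members with the largest distance to the nearest other lineage were Kcnd3 with a log2 difference of 5.39 ± 0.15 (SE), Kcne1l with 4.02 ± 0.21, Kcnab1 with 3.38 ± 0.18, Kcnc2 with 3.09 ± 0.13 and Kcnn1 with 2.97 ± 0.27. The nearest lineage was the B lineage for Kcnd3 and Kcnab1, the d2 PGCLC for Kcne1l and Kcnn1, and the intestine for Kcnc2. Of the other 12, Kcnq1ot1 (1.25 ± 0.18) fell to 0.53 and Kcnh5 (1.12 ± 0.12) to 0.97 when libraries were scaled by median-of-ratios, which took both below the fold required. Kcnip4 and Kcna6 fell under the filter with that scaling and could not be tested. Over all genes, 2177 of 13962 were enriched in the retina with it, beside 3157 of 14131 as deposited. Kcnj14 and Kcng4 were not called enriched in the retina, at 0.71 ± 0.24 and 0.99 ± 0.22, with 4 of the 5 retinal groups at a mean of at most 1.29 RPM.

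Members with high levels in the early groups included the pore-forming Kcnc2, Kcnd3 and Kcnb2 and the auxiliary Kcne1l. The gate differs between P0, P4 GFP+CD73- and the CD73+ groups, so age and gate cannot be told apart across the series. Kcnc2, which encodes a channel of fast-spiking cells, was at 69.9 and 49.8 RPM at P0, 25.2 and 19.1 RPM in P4 GFP+CD73-, 8.96 and 6.35 RPM in P4 CD73+, 1.46 and 1.55 RPM at P6, and 2.08 and 1.01 RPM at P10. It was lower in each group than in the one before up to P6, with no overlap of libraries, and P6 and P10 overlapped. Kcnd3, a rapidly inactivating A-type channel, was at 113 and 99.2 RPM at P0, 129 and 112 RPM in P4 GFP+CD73-, 27.3 and 25.7 RPM in P4 CD73+, 40.6 and 60 RPM at P6, and 14.3 and 7.40 RPM at P10. The P0 and P4 GFP+CD73- libraries lay above all CD73+ ones. Kcnb2, a delayed rectifier, was at 19.0 and 19.1 RPM at P0, 31.1 and 28.3 RPM in P4 GFP+CD73-, 11.5 and 13.0 RPM in P4 CD73+, 5.86 and 3.48 RPM at P6, and 3.64 and 2.69 RPM at P10. Kcne1l, an auxiliary subunit of the KCNE family on chromosome X, was at 195 and 207 RPM at P0, 324 and 375 RPM in P4 GFP+CD73-, 286 and 260 RPM in P4 CD73+, 128 and 120 RPM at P6, and 21.7 and 15.6 RPM at P10. Its 2 P10 libraries were the lowest of the retina and still above all libraries of the other lineages.

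Members with high levels in the late groups included Kcne2 and Kcnma1 beside Kcnj14 and Kcng4. Kcne2, an auxiliary subunit, was at 2.26 and 0.233 RPM at P0, 2.68 and 3.19 RPM in P4 GFP+CD73-, 7.07 and 4.23 RPM in P4 CD73+, 9.52 and 12.8 RPM at P6, and 21.8 and 35.7 RPM at P10. Each group stood above the one before without overlap, although none of the 4 steps passed the test. With median-of-ratios scaling the step from P6 to P10 did (1.37 ± 0.43, adjusted p 0.0334). Kcnma1, the pore of the large-conductance calcium-activated (BK) channel, was at 0.453 and 0.947 RPM at P0, at most 2.94 RPM in the P4 libraries, 11.2 and 13.9 RPM at P6, and 9.35 and 13.1 RPM at P10, so that P6 and P10 lay above the rest and overlapped each other.

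**Figure D2:**
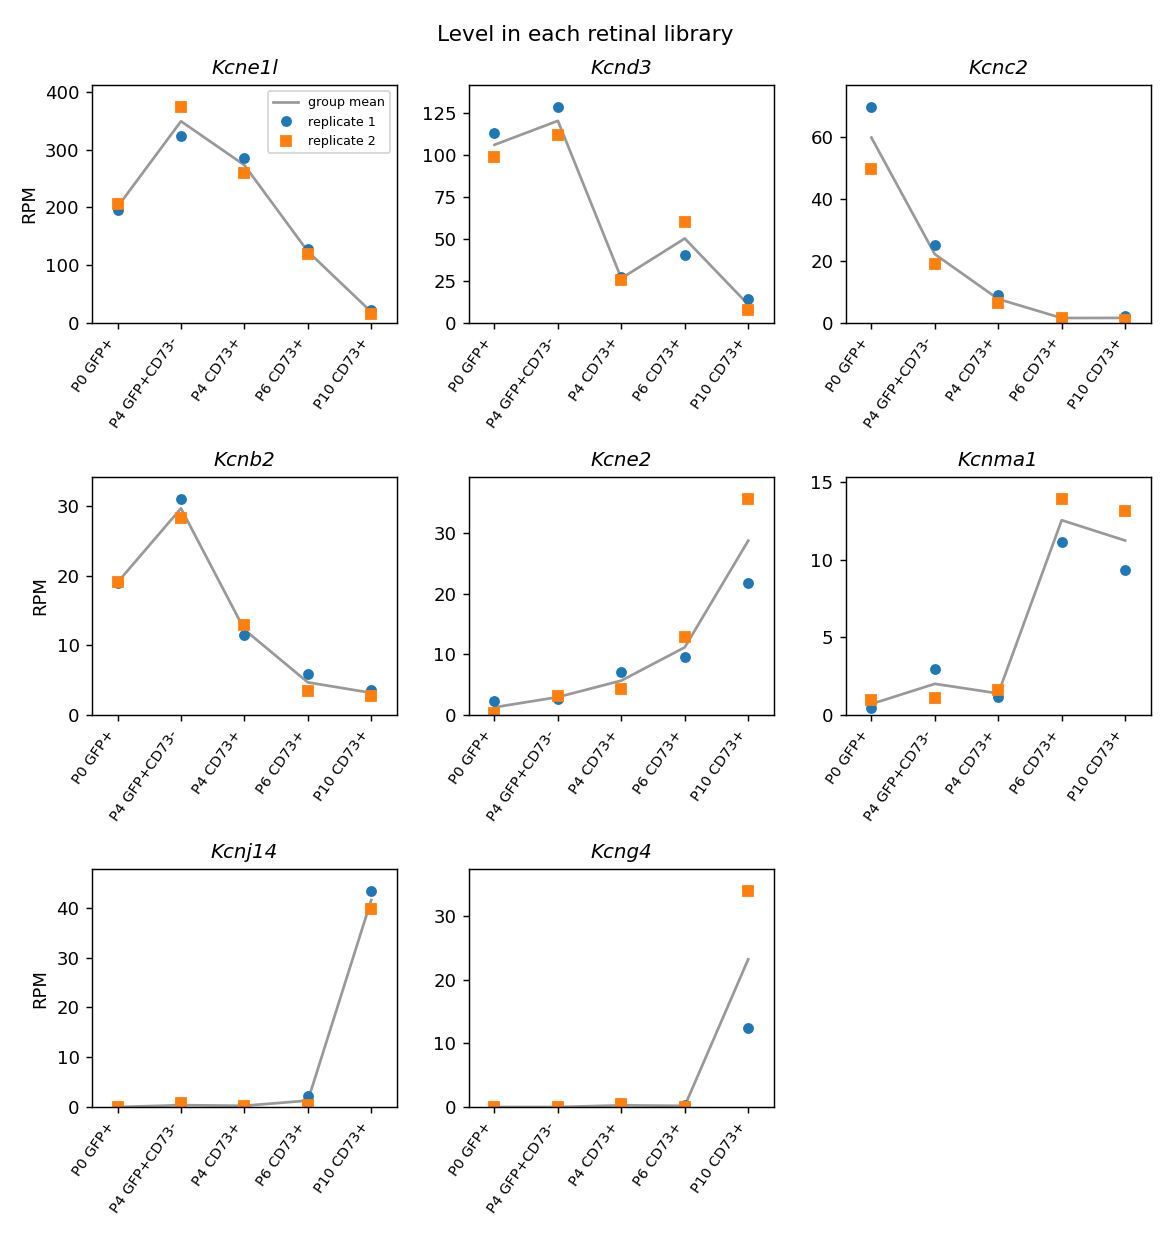
Level in RPM (vertical axis, from 0, a scale for each gene) of 8 members in the 5 retinal groups (horizontal axis); circles and squares are the 2 libraries and the grey line joins the group means. Kcne1l, Kcnd3, Kcnc2 and Kcnb2 are low at P10, where Kcne2 is at 21.8 and 35.7 RPM, and Kcnj14 and Kcng4 stand out at P10.

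Adjacent groups were tested on log2(RPM + 1), a scale that understates differences of genes with low levels, and a gene was said to have risen or fallen when its adjusted p was under 0.05 and its log2 difference at least 1. Of the 35 members, 27 reached the filter in the retina and the other 8 were not tested there. From P0 GFP+ to P4 GFP+CD73-, 3 members rose, where 5.24% of all genes did, and 2 fell, where 5.77% did; the members' median log2 difference was 0.20 beside 0.06 over all 11704 genes. Among them Kcnc1, a fast channel related to Kcnc2, rose by 1.75 ± 0.43 (adjusted p 0.008). As Kcnc1 reached 5 RPM in 3 groups alone, with its highest mean in P4 GFP+CD73-, this rise is read as a description. Kcnab1, a beta subunit of Kv channels, fell by 1.50 ± 0.43 (adjusted p 0.0204) and Kcnc2 fell by 1.39 ± 0.36 (adjusted p 0.0112). The calls of Kcnc1, Kcnab1 and Kcnc2 rested on single libraries. The adjusted p became 0.163 for Kcnab1 and 0.0979 for Kcnc2 without P0 replicate 1, and 0.0888 for Kcnc1 without P0 replicate 2. It became 0.275 for Kcnab1 without P4 GFP+CD73- replicate 1, and 0.0598 for Kcnc1 and 0.089 for Kcnc2 without P4 GFP+CD73- replicate 2. Retinal progenitor markers (7 of 7 detected) summed to 1862 and 1857 RPM at P0 and to 301 and 606 RPM in P4 GFP+CD73-, while photoreceptor markers went from a mean of 2664 to 6865 RPM; their part in these differences was not tested.

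Between the 2 P4 groups, which differ in gate and not in age, 1 member was higher in CD73+ cells, where 3.43% of all genes were, and 3 were lower, where 2.43% were; the members' median was -0.18 beside -0.01 over all genes. Kcnd3 was lower by a log2 difference of -2.14 ± 0.26 (adjusted p 4.9e-05), Kcnc2 by -1.42 ± 0.36 (adjusted p 0.0159) and Kcnb2 by -1.21 ± 0.32 (adjusted p 0.0219). The Kcnb2 call was lost without any one of the 4 libraries, with adjusted p between 0.067 and 0.143, and the Kcnc2 call without P4 GFP+CD73- replicate 1 (0.148) or P4 CD73+ replicate 2 (0.118). Photoreceptor markers summed to 7205 and 6525 RPM in GFP+CD73- and to 11857 and 9837 RPM in CD73+ cells, with 6 of 9 called higher. Markers of T, NK and myeloid cells summed to 63.5 and 129 RPM and to 25.0 and 18.1 RPM, with Tyrobp and Csf1r called lower. Progenitor markers overlapped, at 301 and 606 RPM in GFP+CD73- and 403 and 723 RPM in CD73+ cells. The part of these lists in the Kcnd3, Kcnc2 and Kcnb2 values was not tested.

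From P4 CD73+ to P6, 3 members rose, where 1.56% of all genes did, and 3 fell, where 1.14% did, with a members' median of 0.32 beside 0 over all genes. Kcnma1 rose by 2.51 ± 0.44 (adjusted p 0.00393) and Kcna5, a delayed rectifier, by 1.73 ± 0.47 (adjusted p 0.0483). Both reached 5 RPM in 2 groups alone, so they are on the list through their high groups. Their tests are read as a description. Kcnip4, a calcium-binding partner of A-type channels, is counted among the 3 but reached 5 RPM at P6 alone, so its P6 level chose it and its difference of 1.99 ± 0.49 is a description. Kcne1l fell by 1.14 ± 0.16 (adjusted p 6.1e-04), Kcnc2 fell by 1.77 ± 0.36 (adjusted p 0.0104) and Kcnb2 fell by 1.26 ± 0.32 (adjusted p 0.039). As Kcnc2 and Kcnb2 reached 5 RPM in 3 groups alone, their falls are read as a description too. Kcne1l kept its call without each of the 4 libraries. Kcnma1 lost it without P6 replicate 2 (adjusted p 0.0681). Kcnb2 lost it without any one of the 4 (0.0602 to 0.245), Kcna5 without P4 CD73+ replicate 1 (0.296) and each P6 library (0.25 and 0.166), and Kcnc2 without P4 CD73+ replicate 1 (0.0796) and each P6 library (0.0765 and 0.0732). Bipolar cell markers, with 7 in the list, summed to 349 and 312 RPM in P4 CD73+ and to 1035 and 1097 RPM at P6, with Trpm1 listed at 0 in the former. Bipolar cells are retinal interneurons, and the part of their markers in the Kcnma1 and Kcnip4 values was not tested.

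From P6 to P10, 4 members rose, where 3.33% of all genes did, and 4 fell, where 7.62% did, with a members' median of 0.10 beside -0.13 over all genes. Kcnj14, Kcng4 and Kcnh6 are counted among the 4 but reached 5 RPM at P10 alone, so their P10 levels chose them and their differences are given as a description, with no test. Kcnj14 was at 2.2 and 0.387 RPM at P6 and higher at P10 by 4.34 ± 0.51, and Kcng4 was at 0.366 and 0 RPM and higher by 4.22 ± 0.55, where the size of each depends on the pseudocount. Kcnh6, a channel of the erg group, was at 4.39 and 2.32 RPM at P6 and at 13.0 and 13.8 RPM at P10, a difference of 1.77 ± 0.46. Kcne1l fell by 2.68 ± 0.16 (adjusted p 5.6e-08), Kcnd3 fell by 2.15 ± 0.26 (adjusted p 3.0e-05), Kcnab3, a beta subunit, fell by 1.63 ± 0.30 (adjusted p 0.00132) and Kcnmb4, the neuronal beta subunit of BK channels, fell by 1.25 ± 0.26 (adjusted p 0.00298).

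Kcnj14, Kcng4 and Kcnh6 fell under the filter when a P10 library was left out, because only 1 library at 5 RPM or more remained. Refitted on the genes of the full fit, Kcnh6 differed by 1.81 without P10 replicate 1 and by 1.72 without P10 replicate 2. Its call was lost in both fits, and also without P6 replicate 2, at 1.42. Bipolar markers summed to 1035 and 1097 RPM at P6 and to 1430 and 1192 RPM at P10; 4 of the 7 rose and 1 fell. Photoreceptor markers summed to 15060 and 13394 RPM at P6 and to 33428 and 38847 RPM at P10. Muller glia markers (7) summed to 786 and 708 RPM at P6 and to 317 and 435 RPM at P10, and progenitor markers to 289 and 266 RPM and to 33.5 and 37.3 RPM. The part of these cell types in the Kcnj14, Kcng4, Kcne1l and Kcnd3 values was not tested.

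**Figure D3:**
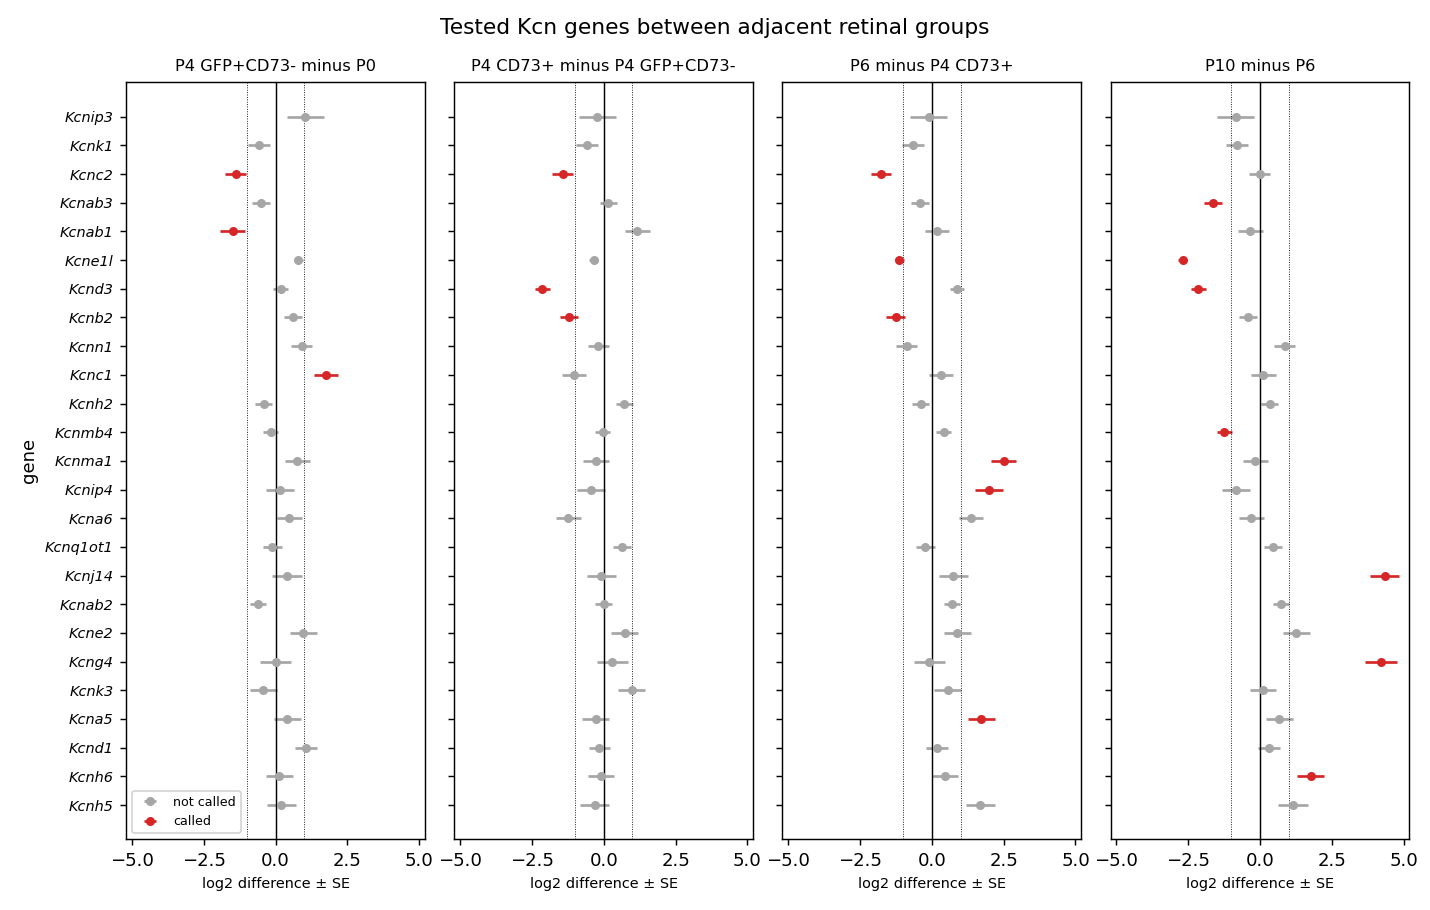
Log2 difference (horizontal axis) of 25 tested members (rows) in the 4 steps between adjacent retinal groups; points are estimates of limma, bars are ± SE, red points passed an adjusted p of 0.05 and a log2 difference of 1 (dotted lines). The widest differences are those of Kcnj14 and Kcng4 from P6 to P10, at 4.34 and 4.22, which like those of Kcnh6 at P10 and Kcnip4 at P6 are a description, since those levels chose the genes. The rises of Kcnma1 and Kcna5, which reached 5 RPM in 2 groups alone, are a description too. So are the rise of Kcnc1 to P4 GFP+CD73- and the falls of Kcnc2 and Kcnb2 to P6. These genes reached 5 RPM in 3 groups alone.

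Across the whole retinal series, a comparison added after the values had been seen and which shares its libraries with the steps above, P10 CD73+ was set against P0 GFP+. Age and gate changed together between these groups and cannot be told apart. In it 11 members were higher, where 15.8% of all genes were, and 7 were lower, where 20.1% were, with a members' median of 0.76 beside -0.10 over all genes. Kcne2 was higher by 3.85 ± 0.46, and Kcnc2 was lower by -4.59 ± 0.36, Kcne1l by -3.38 ± 0.16 and Kcnd3 by -3.24 ± 0.26. Kcnma1 (2.85 ± 0.44), Kcna5 (2.52 ± 0.47) and Kcnd1 (1.39 ± 0.38), another A-type channel, were also higher. Kcnma1 and Kcna5 reached 5 RPM in 2 groups alone, and Kcne2, Kcnc2, Kcnb2 and Kcnc1 in 3 groups alone. These genes are on the list through their high groups, so their differences are read as a description. Kcnh5, Kcnh6, Kcnj14 and Kcng4 are in the count through the P10 levels that chose them: Kcnh5 differed by 2.74 ± 0.51 and Kcnh6 by 2.26 ± 0.46, and no fold is given for Kcnj14 and Kcng4, which were listed at 0 in both P0 libraries. Kcnk1 (-2.61 ± 0.38), Kcnab3 (-2.40 ± 0.30), Kcnb2 (-2.28 ± 0.32) and Kcnmb4 (-1.04 ± 0.26) were also lower. Calls of the background channel Kcnk3 (1.20 ± 0.46) and of Kcnc1 (1.14 ± 0.43) were lost without any of 3 libraries: for Kcnk3 the adjusted p was 0.245 without P0 replicate 1, 0.0739 without P10 replicate 1 and 0.167 without P10 replicate 2, and for Kcnc1 it was 0.249 without P0 replicate 2, 0.0737 without P10 replicate 1 and 0.152 without P10 replicate 2. Kcnd1 lost its call without P10 replicate 2 (adjusted p 0.0507), and Kcnmb4 came under the fold at -0.92 without P0 replicate 1 and at -0.98 without P10 replicate 1.

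Among the other members of the retina, Kcnh2, an erg channel, had its highest mean of 19.1 ± 0.68 RPM (SD, n = 2) in P4 CD73+ and means between 11.3 and 18.5 RPM in the other retinal groups, and none of its tests between groups of the retina was called. Kcnn1, a small-conductance calcium-activated channel, had its highest mean of 20.1 ± 1.13 RPM in P4 GFP+CD73- and 25.7 and 11.8 RPM in the P10 libraries. Kcnab2, a beta subunit, had its highest mean at P10 (34.5 ± 0.76 RPM) and reached 5 RPM in the B lineage as well. Kcna6 had its highest mean at P6, and Kcnc1 (9.31 ± 1.68 RPM) in P4 GFP+CD73-. Kcnq1ot1, at 52.2 ± 11.4 RPM at P10, had unequal replicates at P6, with 24.5 and 56.7 RPM. Highest means at P10 were also found for Kcnk3 (17.0 ± 2.67 RPM), Kcna5 (14.4 ± 5.32 RPM), Kcnd1 (13.7 ± 2.48 RPM) and Kcnh5 (7.09 ± 0.99 RPM). Kcnab1 (17.1 ± 8.09 RPM) and Kcnab3 (25.5 ± 5.07 RPM) had theirs at P0, and Kcnmb4 (26.5 ± 0.78 RPM) at P6.

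In the intestine the members of highest mean level over the 3 stages were Kcnq1 (113 RPM), Kcne3 (109 RPM), Kcnk1 (60.9 RPM), Kcnn4 (51.8 RPM) and Kcnk5 (23.3 RPM). Kcnq1 and Kcne3 encode the pore and the auxiliary subunit of a channel of the basolateral membrane that is known to sustain chloride secretion. Kcne3 was at 40.0 and 28.7 RPM at E16.5, 133 and 153 RPM at P3 and 155 and 146 RPM at P14. Kcnq1 was at 9.62 and 7.10 RPM, 106 and 117 RPM, and 257 and 182 RPM at the same stages. For both genes the E16.5 libraries lay below all later ones, and P14 overlapped P3 for Kcne3 but not for Kcnq1. Outside the intestine Kcnq1 was listed at 0 in all libraries but 1 B cell library at 0.202 RPM, and Kcne3 did not exceed 0.387 RPM. Enrichment over the nearest other lineage was 6.41 ± 0.14 for Kcne3, 5.90 ± 0.13 for Kcnq1 and 1.08 ± 0.22 for Kcns3, a silent subunit that joins other voltage-gated subunits. The Kcns3 call was lost without d2 PGCLC replicate 1 (0.90) or E16.5 replicate 2 (0.97), which took the difference below 1. Kcnq1 and Kcnq1ot1 overlap on opposite strands, and whether the authors' counting used strand is not given, so reads of the 2 cannot be told apart with certainty. Kcnq1ot1 was at 14.3 and 21.6 RPM at E16.5 and at 7.38 and 4.53 RPM at P14.

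From E16.5 to P3, 7 of the 9 members tested rose, where 12.6% of all genes did, and none fell, where 8.2% did; the members' median log2 difference was 1.90 beside 0.11 over all 10481 genes. Kcnn4 rose by 6.01 ± 0.29 (adjusted p 1.0e-13), a size that depends on the pseudocount, and Kcnq1 by 3.60 ± 0.21 (adjusted p 2.1e-12). Kcnk1, a two-pore channel, rose by 2.21 ± 0.20 (adjusted p 4.6e-09) from 16.9 and 17.9 to 82.1 and 86.5 RPM, and Kcne3 by 2.04 ± 0.18 (adjusted p 5.3e-09). Kcnk6, a two-pore channel related to Kcnk1, rose by 1.90 ± 0.41 (adjusted p 8.5e-04) from 1.15 and 4.94 to 13.0 and 11.8 RPM, with 1.17 without E16.5 replicate 1 and 2.63 without E16.5 replicate 2. Kcnn4 and Kcnk6 stayed under 5 RPM at E16.5 and passed the filter through postnatal libraries alone. They are counted among the 7, and their rises are read as a description. Kcns3 rose by 1.85 ± 0.31 (adjusted p 4.7e-05) from 5.39 and 9.26 to 26.5 and 30.0 RPM. Kcnk5, an alkaline-activated two-pore channel of transporting epithelia, rose by 1.08 ± 0.29 (adjusted p 0.00485) from 16.2 and 9.26 to 26.5 and 27.6 RPM, and this call was lost without E16.5 replicate 2 (0.71, adjusted p 0.0953) and with median-of-ratios scaling (0.95). Each of the 7 had its E16.5 libraries below its P3 libraries, a description, since they were already called and no share over all genes was taken.

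Markers of several epithelial cell types moved in the same step, along with the gate. Enteroendocrine markers (8 of 8) summed to 94.3 and 63.3 RPM at E16.5 and to 7803 and 5353 RPM at P3, goblet cell markers (6 of 6) to 385 and 358 RPM and to 2652 and 2442 RPM, and intestinal stem cell markers (5 of 5) to 31.2 and 28.4 RPM and to 1943 and 2226 RPM. Enterocyte markers (8 of 8) went from 22665 and 24416 RPM to 13316 and 12218 RPM. Enteric neuron and glia markers (6) summed to 6.73 and 8.65 RPM at E16.5 and to 21.7 and 21.9 RPM at P3, without overlap, and S100b rose (2.19). Mesenchyme and smooth muscle markers (8) summed to 34.9 and 70.7 RPM and to 26.0 and 34.6 RPM, with Acta2 called lower and Dcn at 0 in both groups. Erythroid markers (6) went from 75.0 and 159 RPM to 5.38 and 8.92 RPM, with Hbb-b1 and Hba-a1 called lower. Those of T, NK and myeloid cells (11) went from 53.1 and 48.2 RPM to 14.3 and 13.3 RPM, with Csf1r called lower. The part of these lists in the 7 rises was not tested, and stage and gate cannot be told apart.

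From P3 to P14 none of the 9 members was called by limma, where 1.99% of all genes rose and 2.4% fell; the median was 0.07 beside -0.08 over all genes, and 1 member, Kcnq1, had an unadjusted p under 0.05. Kcnq1 was higher at P14 by 0.95 ± 0.21 (adjusted p 0.00427), just under the fold required, and was called at 1.19 without P14 replicate 2 and at 1.03 with median-of-ratios scaling. Kcnn4 (0.07 ± 0.29), Kcne3 (0.07 ± 0.18), Kcnk1 (-0.06 ± 0.20), Kcnk5 (0.14 ± 0.29) and Kcns3 (-0.30 ± 0.31) had differences no larger than their errors; Kcnk1 was at 0.03 with median-of-ratios scaling and Kcnk5 at -0.06 without P14 replicate 2. Tuft cell markers (5) summed to 1.79 and 1.35 RPM at P3 and to 36.6 and 43.2 RPM at P14. The 4 tested rose, and they passed the filter through P14 alone. Enteroendocrine markers went from 7803 and 5353 RPM to 1590 and 3039 RPM, with 6 of 8 called lower. Enterocyte markers went from 13316 and 12218 RPM to 5062 and 5909 RPM, with 4 of 8 called lower. The part of these lists in the members' values was not tested. In the comparison of P14 with E16.5, added after the values had been seen, the same 7 members were higher, where 11.8% of all genes were, and Kcnq1ot1 was lower (-1.45 ± 0.39), where 10.4% were; the median was 2.12 beside 0.02. That Kcnq1ot1 call was lost without E16.5 replicate 2 (adjusted p 0.0815) or P14 replicate 2 (0.0721), and the Kcnk5 one without E16.5 replicate 2 (0.85). Kcne1l was the member tested and not called, at 4.82 and 7.16 RPM at E16.5 and 3.61 and 4.76 RPM at P14. As at P3, the differences of Kcnn4 and Kcnk6 from E16.5 are a description.

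**Figure D4:**
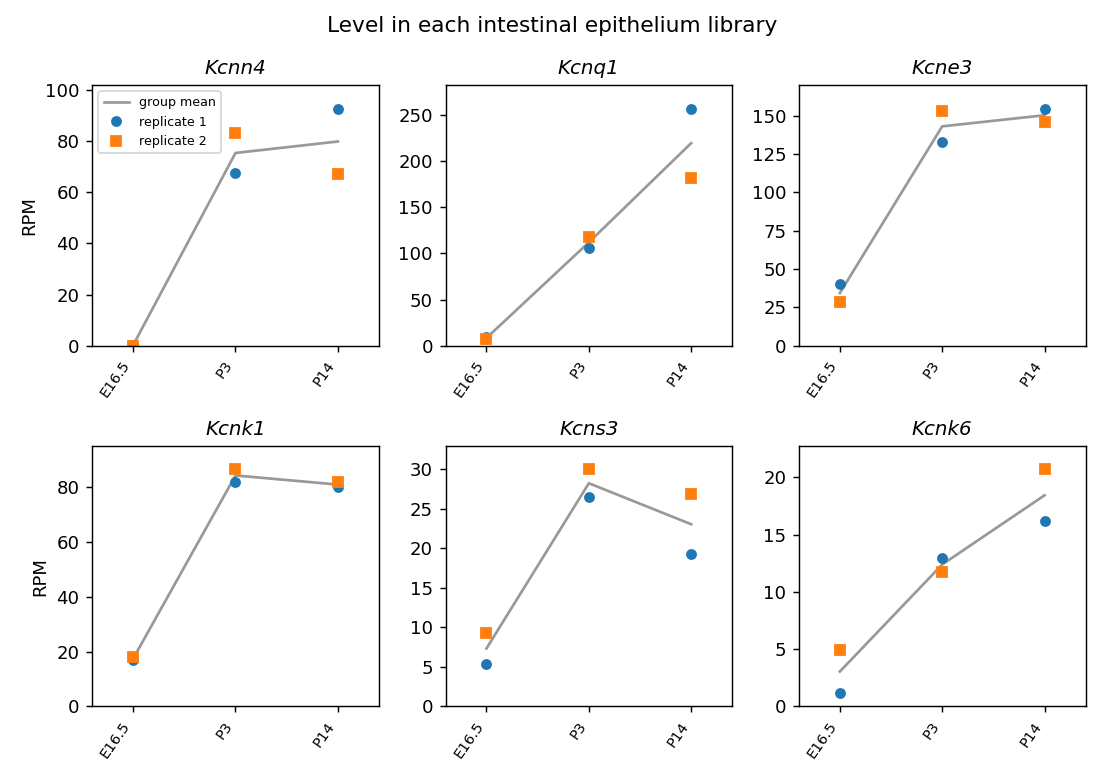
Level in RPM (vertical axis, from 0, a scale for each gene) of 6 members in the epithelium of the intestine, by stage (horizontal axis: E16.5, P3, P14); circles and squares are the 2 libraries and the grey line joins the group means. All 6 are lowest at E16.5, and Kcnq1 is at 106 and 117 RPM at P3 and at 257 and 182 RPM at P14.

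In the B lineage the members of highest mean level over the 4 groups were Kcnn4 (80.2 RPM), Kcnk6 (24.6 RPM), Kcnab2 (19.8 RPM), Kcnq1ot1 (18.9 RPM) and Kcnk5 (12.1 RPM). The enriched ones were Kcnq5, a channel of the M-current family (3.14 ± 0.24 over the d2 PGCLC), Kcna3, the main voltage-gated channel known in lymphocytes (1.94 ± 0.18 over the retina), and Kcnn4 (1.82 ± 0.18 over the intestine). For Kcnn4 the intestine average includes E16.5, where it was nearly absent. Its P3 and P14 intestine libraries all lay above every B cell and Blast library. Kcna3 was at 17.6 and 16.9 RPM in B cells, 6.35 and 2.31 RPM in Blast, 2.75 and 4.20 RPM in prePB, and 5.39 and 5.15 RPM in PB. Kcnn4 was at 42.5 and 44.6 RPM in B cells, 25.4 and 41.6 RPM in Blast, 81.2 and 106 RPM in prePB, and 155 and 146 RPM in PB. The B cell libraries were thus the highest for Kcna3, and the PB libraries for Kcnn4, without overlap with other groups. Kcnq5 was at 9.91 and 7.47 RPM in B cells, 11.2 and 15 RPM in Blast, 12.8 and 12 RPM in prePB, and 6.52 and 8.43 RPM in PB, and none of its tests between stages was called.

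From B cells to Blast, no member rose, where 12.3% of all genes did, and 3 of the 8 tested fell, where 21.8% did; the members' median was -0.25 beside -0.18 over all 9871 genes. Kcnk5 fell by 2.00 ± 0.36 (adjusted p 3.2e-04) from 22.6 and 16.1 to 4.32 and 3.76 RPM. Kcna3 fell by 1.89 ± 0.41 (adjusted p 0.00145), a call lost with no filter on low values (adjusted p 0.0548). As Kcna3 reached 5 RPM in 2 groups alone, this fall is read as a description. Kcnq1ot1 fell by 1.28 ± 0.31 (adjusted p 0.00318) from 33.0 and 48.8 to 13.7 and 18.5 RPM, a call lost without B cell replicate 2 (adjusted p 0.0627). Markers of T, NK and myeloid cells (11 of 11 detected in B cells) summed to 379 and 484 RPM in the B cell libraries and to 12.1 and 25.3 RPM in Blast, with Itgam and Tyrobp listed at 0 in Blast, and Kcna3 is known in T cells as well; their part in these falls was not tested.

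From Blast to prePB, 3 members rose, where 4.43% of all genes did, and none fell, where 5.83% did; the members' median was 0.28 beside -0.24. Kcnn4 rose by 1.48 ± 0.22 (adjusted p 3.6e-04), Kcnk5 by 1.48 ± 0.36 (adjusted p 0.00984) to 9.77 and 17.4 RPM, and Kcnk6 by 1.33 ± 0.35 (adjusted p 0.0151) from 17.3 and 7.22 to 25.9 and 34.2 RPM. The Kcnk5 and Kcnk6 calls were lost without Blast replicate 2 (adjusted p 0.0517 and 0.152) or prePB replicate 2 (0.105 and 0.109). From prePB to PB limma called no member, where 1.26% of all genes rose and 11.7% fell; the members' median was -0.11. Kcnn4 was higher by 0.70 ± 0.22 (adjusted p 0.032) and Kcnq1ot1 lower by -0.87 ± 0.31 (adjusted p 0.0488), both under the fold required and the only 2 with an unadjusted p under 0.05. The median of all genes in this step was -0.39 as deposited and 0.01 with median-of-ratios scaling, and the lines used summed to less RPM in PB than elsewhere. With that scaling Kcnn4 (1.12 ± 0.22, adjusted p 0.00417) and Kcnk6 (1.14 ± 0.36, adjusted p 0.0465) were called as higher in PB.

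Set against B cells, a comparison added after the values had been seen, PB had Kcnk6 (2.74 ± 0.35) and Kcnn4 (1.77 ± 0.22) higher, where 7.2% of all genes were, and Kcnq1ot1 (-2.52 ± 0.31) and Kcna3 (-1.54 ± 0.41) lower, where 40.5% were; the median was -0.38 for the members and -0.77 for all genes. With median-of-ratios scaling, which brought that median to -0.06, Kcnk6 was at 3.49, Kcnn4 at 2.51 and Kcnq1ot1 at -1.86, and the Kcna3 call was lost (-0.89, adjusted p 0.102). Kcnk6 was at 7.68 and 5.54 RPM in B cells and 49.1 and 49.7 RPM in PB. Kcnab2, at 14.2 to 26.3 RPM in the 8 libraries, was not called in any step.

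**Figure D5:**
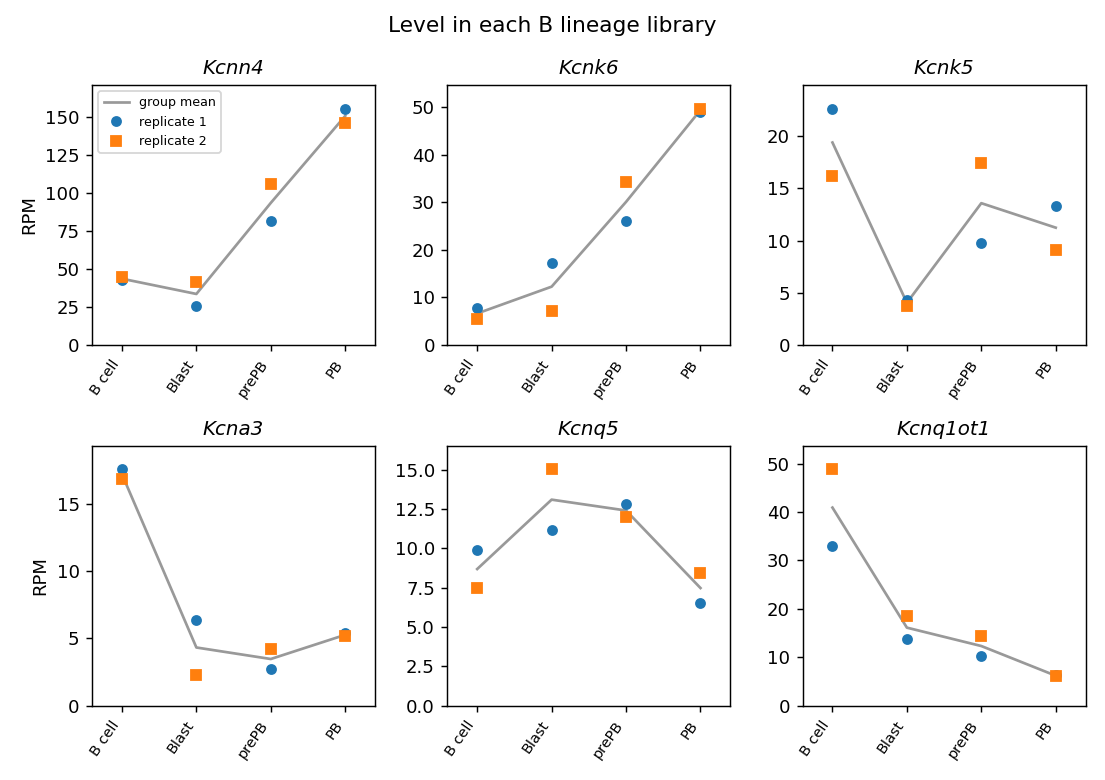
Level in RPM (vertical axis, from 0, a scale for each gene) of 6 members in B cells, Blast, prePB and PB (horizontal axis); circles and squares are the 2 libraries and the grey line joins the group means. The group means of Kcnn4 and Kcnk6 are highest in PB, and those of Kcna3, Kcnk5 and Kcnq1ot1 in B cells.

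In the d2 PGCLC the members of highest mean level were Kcnk1 (34.1 ± 9.44 RPM), Kcnmb4 (13.6 ± 0.22 RPM), Kcnq1ot1 (10.7 ± 1.12 RPM), Kcne1l (7.61 ± 2.52 RPM) and Kcns3 (7.47 ± 1.50 RPM), and Kcnd1 (5.48 ± 1.16 RPM) reached 5 RPM too. Kcnip3, a calcium sensor that binds A-type channels and also acts in the nucleus, was the 1 enriched member, at 4.08 and 6.30 RPM with a difference of 1.19 ± 0.37 over the retina, a description since its d2 PGCLC level chose it. Single libraries of P4 GFP+CD73- (5.25 RPM) and P4 CD73+ (5.55 RPM) reached the same level. The call was lost without d2 PGCLC replicate 2 (0.93, adjusted p 0.237).

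Other genes that set the potassium gradient or act with these channels were taken as 4 lists. Of the 10 channel partners, 3 were tested in the intestine and 3 in the retina. Lrrc26, an auxiliary subunit of BK channels, rose in the intestine from 0.769 and 0 RPM at E16.5 to 18.4 and 7.07 RPM at P3 (log2 difference 3.23 ± 0.43) and to 36.0 and 50.3 RPM at P14 (1.80 ± 0.43), where Kcnma1 itself did not exceed 1.01 RPM. Abcc8, the regulatory subunit of ATP-sensitive channels, rose from E16.5 to P3 (2.74 ± 0.51). All partners together summed to 1.97 and 4.63 RPM at E16.5, so Lrrc26 and Abcc8 passed the filter through postnatal libraries alone. Their rises from E16.5 are read as a description. Nalcn, a sodium leak channel, was lower in P4 CD73+ than in P4 GFP+CD73- cells (-2.31 ± 0.45) and rose from P6 to P10 (1.69 ± 0.45). The other gene tested in the intestine and the other 2 in the retina were not called in any adjacent step.

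Of the 20 genes of the sodium-potassium pump and of cation-chloride cotransport, 7 were tested in the intestine, 8 in the B lineage and 13 in the retina. Slc12a2, the cotransporter that loads epithelial cells with chloride for secretion, rose from 5.39 and 4.63 RPM at E16.5 to 83.4 and 107 RPM at P3 (4.0 ± 0.23), as did the pump regulator Fxyd3 (2.74 ± 0.23), and none of the other 5 was called. In the retina the pump subunit Atp1b2 (1.64 ± 0.16) and the neuronal chloride extruder Slc12a5 (1.39 ± 0.21) rose from P0 to P4 GFP+CD73-, and Fxyd6 and Slc12a7 fell. Slc12a5 was higher again in P4 CD73+ cells (1.70 ± 0.21), none was called from P4 CD73+ to P6, and Atp1b3, Fxyd1, Fxyd3, Fxyd6 and Slc12a7 fell from P6 to P10, by 1.12 to 1.95. In the B lineage Atp1b1 fell in Blast (-2.96 ± 0.32) and rose in prePB (1.30 ± 0.32), and Slc12a2 fell in PB (-1.19 ± 0.41). The median of all genes from prePB to PB was -0.39 as deposited, and Slc12a2 is not given here with median-of-ratios scaling.

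Of the 10 pacemaker and cyclic nucleotide-gated channel genes, 6 were tested in the retina and none in the other lineages. Cnga1 and Cngb1, the subunits of the rod light-response channel, rose from P0 to P4 GFP+CD73- (4.16 ± 0.21 and 3.94 ± 0.15), were higher in CD73+ than CD73- cells at P4 (2.96 ± 0.21 and 2.50 ± 0.15), and rose from P6 to P10 (1.56 ± 0.21 and 1.12 ± 0.15). The pacemaker-type channel Hcn4 fell from P0 to P4 GFP+CD73- (-2.05 ± 0.39) and Hcn3 rose from P4 CD73+ to P6 (2.63 ± 0.38).

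Of the 17 genes of calcium entry and calmodulin, 13 were tested in the B lineage, where Kcnn4 needs calcium-loaded calmodulin to open. The receptor channel Itpr3 fell from 178 and 159 RPM in B cells to 24.4 and 21.1 RPM in Blast (-2.84 ± 0.20) and rose to 69.0 and 61.8 RPM in prePB (1.49 ± 0.20). Itpr2 (-2.56 ± 0.22), Orai2 (-1.74 ± 0.33) and P2rx4 (-1.56 ± 0.32) also fell in Blast and Calm3 rose (1.01 ± 0.17), and Itpr1 (-2.16 ± 0.22) and Orai2 (-1.47 ± 0.33) fell in PB. These falls in PB are on the deposited scale, where the median of all genes from prePB to PB was -0.39. In the intestine, of 14 tested, Stim1 rose at P3 (1.16 ± 0.33) and Trpm5, which is also on the tuft cell list, at P14 (3.11 ± 0.57). That whole list summed to 1.79 and 1.35 RPM at P3 and to less at E16.5. Trpm5 thus passed the filter through P14 alone, and its rise is read as a description. In the retina, of 11 tested, Itpr1 rose from P6 to P10 (1.50 ± 0.45).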

How the data were processed

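Expression was measured by 3' RNA-seq in 26 mouse libraries (13 groups of 2, grouped by their labels). Per the file headers, the authors give expression as a normalized signal (RPM). The submitters' processing notes list mm10 and, in no stated order, Cufflinks 2.2.0, Bowtie 1.0.1, TopHat 1.4.1 and cutadapt 1.11; the step each made, strand use and the counting of shared reads are not given in the sources used here. Between 82.9 and 91.3% of the low values of a library were whole numbers of reads, with a tolerance of 0.02, so no count test was run.

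Of 26310 lines, 1164 that were not completely filled (1072 gene lines, with most immunoglobulin genes, and spike-ins) were left out. Members were found by name and level, and members and gene lists were chosen with earlier results of these data known. Each lineage was fitted with limma 3.58.1 (trend) in R 4.3.3 on log2(RPM + 1), keeping genes that reached 5 RPM in 2 or more of the libraries fitted (B lineage 8, intestine 6, retina 10); lineage enrichment used all 26. Tests were two-sided, with Benjamini-Hochberg adjustment across every gene in a fit. The fit was checked on simulated data. A few genes, 2 members among them, are counted but not reported here. The other members were named, with full values for Kcnn4, Kcnj14 and Kcng4, the 5 of highest mean per lineage, up to 6 enriched per lineage and up to 5 called per direction; values of other members were added. Alternatives were a pseudocount of 0.25, no filter, median-of-ratios scaling, a replicate block and leaving out each library; contrasts of last with first stages were added after seeing the data. Positions and promoters came from RefSeq (GRCm38.p6); tables were made with pandas 2.3.3 and NumPy 2.4.6 in Python 3.11.15, and figures with matplotlib 3.10.9.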

Additional observations from a re-analysis of the deposited data

How the results depend on the processing

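None of 91 member calls, those of the added comparisons included, changed direction where it was tested, while uncalled values near 0 could change sign. Of the 91, 3 were lost with log2(RPM + 0.25), 5 with median-of-ratios scaling, 31 with no filter on low values, none with the replicate block and 25 without at least 1 library. Because the gene fell under the filter, 4 other calls could not be tested with median-of-ratios scaling, and 10 calls, some of them among the 25, had no test without at least 1 library. The stage calls among these 10 were refitted on the genes of the full fit and kept their direction. In that refit Kcnh6 for P10 against P6 and Kcnip4 for P6 against P4 CD73+ lost their calls. Without a filter, all 25146 lines were tested and the count of called members became 0 (from 3) for prePB against Blast, 4 (from 7) for P3 and 4 (from 8) for P14 against E16.5 in the intestine, 0 (from 5) for P4 GFP+CD73- against P0, 1 (from 4) for P4 CD73+ against P4 GFP+CD73-, 0 (from 6) for P6 against P4 CD73+, and 0 (from 1) for enrichment in d2 PGCLC. With median-of-ratios scaling it became 2 (from 0) for PB against prePB, 1 (from 0) for P14 against P3 in the intestine and, for lack of a test, 0 (from 1) for enrichment in d2 PGCLC. Leaving out 1 library at a time gave 1 to 3 members for prePB against Blast, 0 to 1 for P14 against P3, 2 to 5 for P4 GFP+CD73- against P0, 2 to 4 for P4 CD73+ against P4 GFP+CD73-, 1 to 4 for P6 against P4 CD73+, 4 to 7 for P10 against P6, 11 to 18 for P10 against P0 and 0 to 1 for enrichment in d2 PGCLC. Part of the fall without a P10 library came from members that no longer met the filter, 3 of 8 against P6 and 4 of 18 against P0. With 1 library left in a group, it is assumed to vary like the other groups. The median-of-ratios scaling moved the share of higher calls over all genes from 43.2 to 65.4% in prePB against Blast, from 9.68 to 47.7% in PB against prePB, from 15.1 to 45.4% in PB against B cells, from 60.6 to 50.6% in P3 against E16.5 and from 30.4 to 41.6% in P10 against P6. Where no construction of the setting is named, the cause was not tested. Deviations of same-numbered replicates correlated between groups of a lineage at -0.05 to 0.28 and the labels tie the numbers to no shared animal or day, so the samples share only a number; with the replicate block, 7 members were called for P3 against E16.5 and 8 for P10 against P6, as without it. At these depths values near 1 RPM rest on a few reads, and 2 libraries per group limit every test.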
